A study of Homo sapiens with 6 samples.

Results

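The genes described are the metalloproteases of the MMP, ADAM and ADAMTS families and the TIMP genes, which encode their tissue inhibitors. They were taken by symbol, as MMP, ADAM, ADAMTS or TIMP followed by a number, leaving out 13 rows that are pseudogenes or antisense RNAs. The rule found 66 genes among the 26485 gene symbols of the count table, namely 23 MMP, 20 ADAM, 19 ADAMTS and 4 TIMP genes. The cells were PC-9, a line from human lung adenocarcinoma with an activating EGFR mutation. The shIFITM3 group (3 samples) stably carried a short hairpin RNA against IFITM3, an interferon-induced membrane protein, and the shControl group (3 samples) a control hairpin. The count table names the control ShEV, and the sources used here do not settle whether that was an empty vector, nor whether each line was 1 clone. The labels call the samples biological replicates without saying that they were separate cultures, so p-values measure the spread between these samples. No drug treatment is named for either group, and the study's title places the comparison in work on MET, AKT and resistance to the EGFR inhibitor osimertinib.

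MMPs are zinc proteases that cut collagens, laminins, proteoglycans and other matrix proteins. Most are secreted as inactive precursors, and the membrane-type members are held at the cell surface. ADAMs are membrane proteins, and those with an intact active site release the outer part of other membrane proteins, a step called shedding. ADAM10 and ADAM17 are the sheddases best known for freeing ligands of the EGF receptor family, and ADAM10 also cuts Notch receptors. ADAMTS proteins are secreted and act on proteoglycans, procollagens and fibrillin microfibrils. TIMPs bind the active site of MMPs, and of only some ADAM and ADAMTS enzymes, and block them.

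Depth was between 21342028 and 27493145 total counts in 5 libraries and 77228760 in shControl replicate 2. Levels below are CPM, counts scaled to a common library size, and the 3 values of a group always stand in the order of its replicate numbers. IFITM3 itself was at 56.99, 60.5 and 62.8 CPM in shControl against 10.4, 12.9 and 9.75 CPM in shIFITM3, so the levels go with all 6 labels (log2 fold change -2.45, edgeR adjusted p = 5.97e-18). The summed level of 6 epithelial markers was 7623 to 7664 CPM in shControl and 6520 to 6748 CPM in shIFITM3. KRT8 and KRT18, which make up most of that sum, and CDH1 fell, EGFR and EPCAM rose, and KRT19 did not pass. The rise of EPCAM was small (log2 fold change 0.09) with overlapping groups. Its call ended in 3 of 12 alternatives (edgeR adjusted p up to 0.184). Of 8 fibroblast markers DCN and LUM had no read, and the sum was 9.21 to 10.5 CPM against 9.996 to 13.9 CPM. Of 6 leukocyte markers MS4A1 had no read, and the sum, nearly all of it CD68, was 63.5 to 71.1 CPM against 73.1 to 78.5 CPM. The 5 endothelial markers summed to 3.53 to 4.38 CPM and 5.52 to 6.28 CPM, and of the 3 tested KDR and CDH5 rose and PECAM1 fell. KDR entered the test through the group in which it was higher. The part of these markers in the results was not tested. In bulk RNA, more cells with a transcript and more transcript per cell cannot be told apart.

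Of the 66 genes, 38 had enough reads to be tested, and 28 did not. In the knockdown 14 of the 38 rose and 7 fell (quasi-likelihood test of edgeR, with p adjusted over all tested genes after Benjamini and Hochberg and a threshold of 0.05). The 21 changed genes are 55.3% of those tested, against 56.1% of all 14018 tested genes (27.7% rose and 28.4% fell), so the share is near the background. Of the 38, 16 both passed the test and had a log2 fold change of at least 0.5 in either direction, and 19.7% of all tested genes did so. The median absolute log2 fold change was 0.53 over the 38 genes and 0.25 over all tested genes. These medians were not matched for level. The 38 include genes under 1 CPM that did not pass, such as MMP1 (0.87, SE 0.605) and ADAM28 (-1.06, SE 0.496). In 20 of the 38 no shIFITM3 value fell inside the control range or the reverse, against 60.9% of all tested genes. Among the TIMPs 1 rose and 3 fell, and among the membrane-anchored MMPs 4 rose and 0 fell. ADAM10 and ADAM17 did not pass the test.

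**Figure D1:**
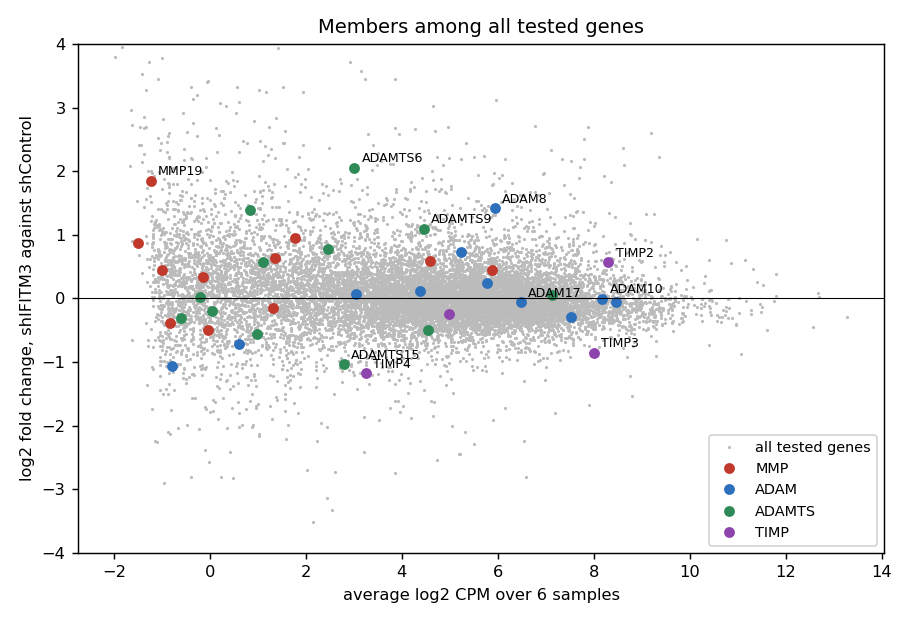
Average level (log2 CPM over the 6 samples, x axis) against log2 fold change in shIFITM3 (y axis) for all 14018 tested genes in grey and the 38 tested members in colour by family. 14 genes lie outside the plotted range of 4 in either direction. ADAMTS6 and ADAM8 stand above most genes of their level, TIMP3 and TIMP4 below, and ADAM10 and ADAM17 near 0.

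Promoter sequence is shown for 4 genes at the ends of the response: ADAMTS6, with the largest log2 fold change among the 38 tested members, ADAM8, with the smallest p among them, TIMP3, the most abundant member to fall, and MMP10, with reads in the knockdown only. Each stretch holds the 150 bases before the RefSeq start site (GRCh38.p14), 5′ to 3′ on the gene's strand. Capitals mark the GC box GGGCGG and the TATA box TATAAA, each searched on both strands, and the AP-1 site TGAGTCA was searched likewise. ADAMTS6 is chr5:65481921-65482070 on the minus strand, ADAM8 is chr10:133276869-133277018 on the minus strand, TIMP3 is chr22:32801555-32801704 on the plus strand and MMP10 is chr11:102780629-102780778 on the minus strand.
ADAMTS6: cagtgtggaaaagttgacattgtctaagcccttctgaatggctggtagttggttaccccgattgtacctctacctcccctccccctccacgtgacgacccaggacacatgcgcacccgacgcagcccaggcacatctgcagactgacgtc
ADAM8: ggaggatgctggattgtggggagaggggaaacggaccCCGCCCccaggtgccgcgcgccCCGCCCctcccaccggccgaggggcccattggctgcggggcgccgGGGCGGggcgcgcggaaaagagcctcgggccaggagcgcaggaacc
TIMP3: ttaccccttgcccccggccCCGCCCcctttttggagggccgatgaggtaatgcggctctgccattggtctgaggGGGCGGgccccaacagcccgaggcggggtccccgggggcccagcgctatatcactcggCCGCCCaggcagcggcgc
MMP10: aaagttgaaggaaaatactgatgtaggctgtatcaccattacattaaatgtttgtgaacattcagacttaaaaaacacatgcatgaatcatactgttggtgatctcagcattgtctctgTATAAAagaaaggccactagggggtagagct
ADAM8, which rose, and TIMP3, which fell, each held 3 GC boxes here, and their G and C content was 77.3% and 72.7%. ADAMTS6 held none of the motifs (57.3%), and MMP10 held 1 TATA box, 31 bases before the start (36.7%). A promoter window of 300 bases, 250 before and 50 after the start, was found for 39 of the 66 genes. The GC box was in 26 of these and in 44.6% of 27305 windows of the same length. The TATA box was in 8 of them and in 11.95% of all windows, and all 8 belonged to genes too low to be tested. The AP-1 letters were in 1 of them, that of MMP7, and in 4.92% of all windows. Genes without a window were not searched, so these counts do not describe all 66. A match describes the letters in the window and not the use of a site.

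ADAM10 and ADAM17, the main sheddases, did not pass the test. ADAM10 (chromosome 15, 58588809 to 58749707, GRCh38) was at 299, 285 and 286 CPM in shControl and at 291, 289 and 289 CPM in shIFITM3. The shIFITM3 values lay inside the range of the control values. Its log2 fold change was -0.0020 with a 95% interval of -0.07 to 0.06 (edgeR adjusted p = 0.963). ADAM17 (chromosome 2, 9488486 to 9555830), the enzyme named for releasing TNF, was at 89.3, 90.8 and 92.9 CPM and at 83.5, 87.0 and 91.4 CPM, so the groups overlapped. Its log2 fold change was -0.06, with a 95% interval of -0.15 to 0.03 (edgeR adjusted p = 0.26). Per kilobase of exon, ADAM10 and ADAM17 were at 22.1 ± 0.601 and 20.6 ± 0.413 RPKM in shControl and at 22.1 ± 0.105 and 19.8 ± 0.895 RPKM in shIFITM3 (SD, n = 3).

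The other ADAMs with an active site went in both directions, with 3 rises and 1 fall among 8 tested genes, ADAM10 and ADAM17 included. That is 50% of the 8, against 56.1% of all tested genes. ADAM8 (chromosome 10, 133262423 to 133276868), a sheddase best known from leukocytes and also made by tumour cells, was at 36.5, 33.0 and 33.0 CPM in shControl and at 91.6, 93.9 and 87.3 CPM in shIFITM3. Every knockdown value was more than all control values, and the rise was 2.67-fold (log2 fold change 1.42, SE 0.0524, edgeR adjusted p = 8.05e-17). Per length ADAM8 went from 10.4 ± 0.607 to 27.7 ± 1.03 RPKM, from a level under those of ADAM10 and ADAM17 to one over both. In CPM it stayed far under ADAM10 (290 ± 1.38 CPM in shIFITM3) and ended near ADAM17 (87.3 ± 3.95 CPM). ADAM10 was divided by 13123 bases of merged exons and ADAM8 by 3279, so their order per length rests on the lengths used.

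ADAM19 (chromosome 5, 157477304 to 157575775), which can shed neuregulins, was at 27.8, 29.7 and 28.0 CPM and at 46.4, 49.8 and 45.9 CPM. The groups were apart, and the log2 fold change was 0.73 (SE 0.0597, edgeR adjusted p = 2.61e-10). Its exons overlap CYFIP2 on the opposite strand, which was far lower and also rose (0.400 ± 0.101 and 1.77 ± 0.764 CPM). CYFIP2 entered the test through the group in which it was higher. ADAM12, which can cut HB-EGF, rose less, by 0.25 on the log2 scale. ADAM15, an abundant ADAM that binds integrins, was the 1 fall, at -0.29, from 191, 207 and 209 CPM to 167, 169 and 159 CPM. ADAM9 had no detected change, at 357 ± 16.96 and 344 ± 7.35 CPM with overlapping groups (log2 fold change -0.05, 95% interval -0.12 to 0.02). ADAM28 stayed under 1 CPM in each library and did not pass (-1.06, 95% interval -2.08 to -0.03, edgeR adjusted p = 0.0744). It passed without shControl replicate 1 or without shIFITM3 replicate 1 (edgeR adjusted p = 0.0492 and 0.0352).

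ADAMs without a protease active site are adhesion proteins best known from neurons and sperm. Of the 8 such genes, 3 were tested and 4 had no read in any library. ADAM11 was low, at 1.70, 1.77 and 1.61 CPM in shControl and 1.18, 1.17 and 0.753 CPM in shIFITM3. The groups did not overlap, and its log2 fold change was -0.72 (SE 0.2902, edgeR adjusted p = 0.0398). That call ended with the DESeq2 test (DESeq2 adjusted p = 0.0662), with the replicate number as a block (edgeR 0.0508), and when shControl replicate 1, 2 or 3 or shIFITM3 replicate 3 was left out (edgeR adjusted p = 0.065, 0.135, 0.0619 and 0.175). ADAM22 (0.12) and ADAM23 (0.07) did not pass, and without shIFITM3 replicate 3 the value of ADAM23 was -0.0093.

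**Figure D2:**
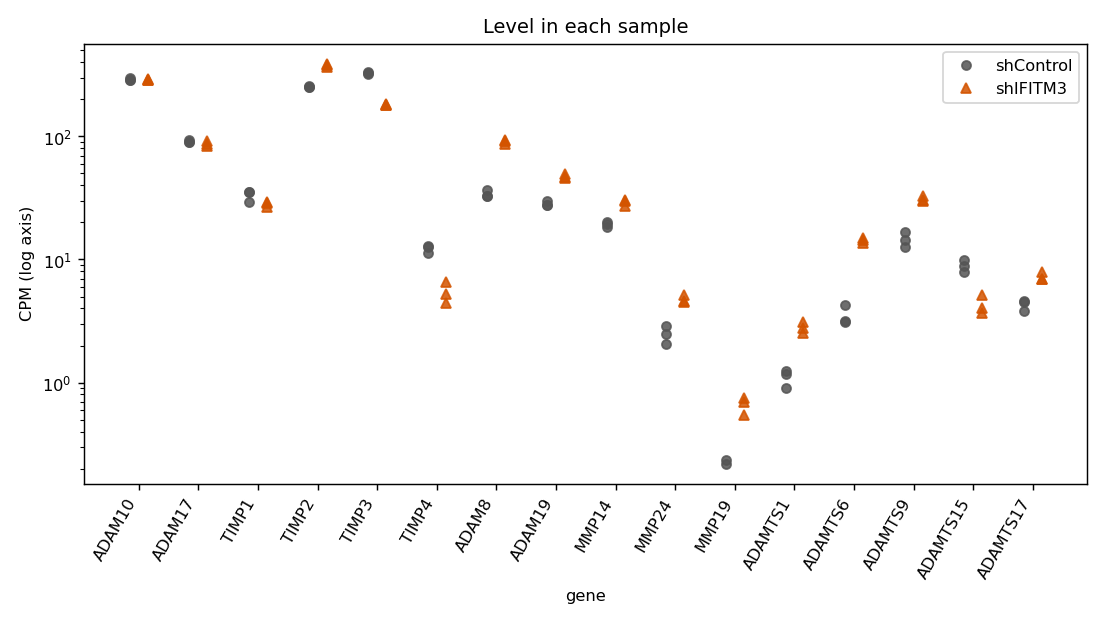
Level of 16 members in each sample (CPM, log axis), with circles for the 3 shControl and triangles for the 3 shIFITM3 samples. ADAM10 and ADAM17 overlap between groups, TIMP3, TIMP4 and ADAMTS15 are lower and ADAM8, ADAMTS6 and ADAMTS9 higher in shIFITM3. MMP19 in shControl replicate 1 was at 0 and has no point on the log axis.

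All 4 TIMPs were expressed, and all passed the test, in different directions, where 56.1% of all tested genes passed. TIMP3 (chromosome 22, 32801705 to 32863041), which stays bound to the matrix and also blocks ADAM17 and several ADAMTS enzymes, was at 333, 327 and 324 CPM in shControl and at 180, 185 and 180 CPM in shIFITM3. The groups were far apart, and the level fell to 0.554 times the control (log2 fold change -0.85, SE 0.0329, edgeR adjusted p = 1.85e-16). TIMP2 (chromosome 17, 78852977 to 78925387), which both inhibits MMPs and takes part in the activation of pro-MMP2 by MMP14, was at 252, 253 and 258 CPM and at 364, 388 and 382 CPM. It rose 1.49-fold with no overlap between the groups (log2 fold change 0.57, SE 0.0327, edgeR adjusted p = 3.36e-13).

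TIMP4 (chromosome 3, 12153068 to 12158912), an inhibitor found in few tissues, was at 11.3, 12.9 and 12.6 CPM and at 4.45, 6.57 and 5.27 CPM. It fell to 0.441 times the control without overlap (log2 fold change -1.18, SE 0.128, edgeR adjusted p = 3.04e-08). TIMP4 shares exon sequence with SYN2 on the opposite strand, which was lower and also fell (0.880 ± 0.346 and 0.448 ± 0.184 CPM, edgeR adjusted p = 0.0363). SYN2 had 11, 93 and 25 counts in shControl and 10, 6 and 15 in shIFITM3, and its groups overlapped in CPM. The libraries of its higher group alone were enough for it to enter the test. TIMP1 (chromosome X, 47582436 to 47586789), a secreted inhibitor that acts weakly on membrane-type MMPs, was at 29.4, 35.6 and 35.4 CPM and at 26.9, 29.6 and 28.96 CPM. Here the groups overlapped through shControl replicate 1. The test gave a small fall (log2 fold change -0.24, SE 0.0736, edgeR adjusted p = 0.00677), which ended without shControl replicate 2 (edgeR adjusted p = 0.0655).

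The makeup of the TIMP pool was compared per length of exon. TIMP3 made up 44.9%, 42.9% and 42.5% of the summed TIMP RPKM in the shControl samples against 26.2%, 25.2% and 25.1% in the shIFITM3 samples. TIMP2 made up 38.3%, 37.6% and 38.2% in shControl and 59.7%, 59.6% and 60.1% in shIFITM3. TIMP3 was thus the most abundant TIMP in every control sample and TIMP2 in every knockdown sample. The ratio of TIMP2 to TIMP3 was 0.876 ± 0.0223 and 2.35 ± 0.0608 (SD, n = 3 each; two-sided exact permutation test p = 0.1, the smallest that 3 against 3 samples can give). The sum over the 4 genes changed less, from 164 ± 2.51 to 155 ± 5.17 RPKM (exact permutation p = 0.1). Exon lengths came from GENCODE release 29, and other lengths would shift each share.

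**Figure D3:**
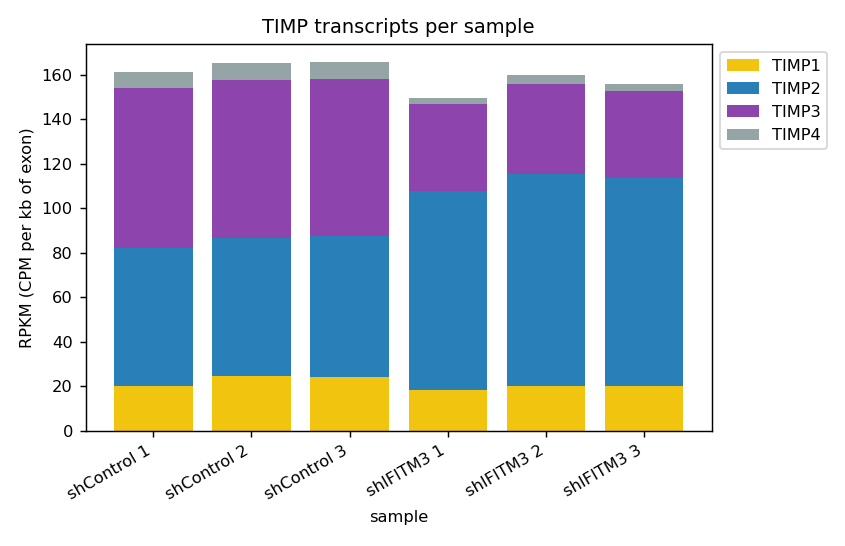
Summed TIMP level in each sample (RPKM, y axis), stacked by gene, for the 3 shControl and 3 shIFITM3 samples. TIMP3 takes 42.5% to 44.9% of the control bars and 25.1% to 26.2% of the knockdown bars, TIMP2 the larger part of the knockdown bars.

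Of 7 membrane-anchored MMP genes 6 were tested, of which 4 rose, 0 fell and 2 did not pass (median log2 fold change 0.52, against -6.33e-05 over all tested genes, of which 27.7% rose). MMP14 (chromosome 14, 22836585 to 22847758), a surface collagenase that activates pro-MMP2, was at 18.4, 20.2 and 19.3 CPM in shControl and at 30.03, 30.3 and 27.5 CPM in shIFITM3. The groups did not overlap, and it rose 1.51-fold (log2 fold change 0.59, SE 0.0733, edgeR adjusted p = 2.67e-07). MMP15, a close relative and the most abundant MMP, rose from 50.7, 49.96 and 49.8 CPM to 69.0, 68.3 and 67.8 CPM (0.45 on the log2 scale). MMP24 (chromosome 20, 35226690 to 35276998), best known from the nervous system, was at 2.88, 2.48 and 2.04 CPM and at 5.18, 4.61 and 4.52 CPM. Its groups were apart as well, and the log2 fold change was 0.96 (SE 0.186, edgeR adjusted p = 0.000115). MMP24 shares exon sequence with the antisense gene MMP24-AS1, which was higher in level and also rose (14.1 ± 1.94 and 19.8 ± 1.56 CPM).

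MMP17 (chromosome 12, 131828393 to 131851771), which is tied to the membrane by a lipid anchor, was at 2.07, 1.91 and 2.30 CPM and at 2.95, 3 and 3.72 CPM. It rose by 0.64 (SE 0.212, edgeR adjusted p = 0.0128). The call ended without shControl replicate 2 or shIFITM3 replicate 3 (edgeR adjusted p = 0.0673 and 0.0773). MMP16 (-0.15) and MMP25 (0.45) did not pass, and without shControl replicate 3 the value of MMP16 was 0.08.

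Secreted MMPs were low, and none exceeded 1.35 CPM in any library. Of 16 such genes, 5 were tested, 11 were too low, and 5 of these had no read in any library. MMP19 (chromosome 12, 55835433 to 55842936), an enzyme that acts on basement membrane proteins, had 0, 18 and 6 counts in shControl and 12, 16 and 18 counts in shIFITM3. In CPM this was 0, 0.234 and 0.219 against 0.545, 0.696 and 0.753, with no overlap (log2 fold change 1.85, SE 0.543, edgeR adjusted p = 0.00559). Its counts are all even, so reads may have been counted in pairs, and the test took the counts as given. MMP19 entered the test through the group in which it was higher, and it shares exon sequence with TMEM198B on the opposite strand, at 7.76 ± 0.793 and 10.3 ± 1.39 CPM. MMP1 (0.87), MMP11 (0.33), MMP28 (-0.39) and MMP2 (-0.50) did not pass. Single libraries carried these values: MMP1 was at 0.09 without shControl replicate 2, MMP11 at -0.03 without shIFITM3 replicate 2, MMP28 at -0.08 without shControl replicate 3 and MMP2 at -0.21 without shIFITM3 replicate 2. In level, MMP2, the gelatinase that MMP14 activates, stayed between 0.391 and 1.16 CPM.

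The MMP gene cluster on chromosome 11 (102520508 to 102955732) holds 9 of the secreted members, of which only MMP1 was tested and 4 had no read. MMP10, a stromelysin, had 0 counts in each shControl library, the deepest included, and 8, 8 and 6 counts in the shIFITM3 libraries. Against 3 counts over the control group, which a count of 0 allows, the observed knockdown total, scaled for depth, was 13.5-fold higher. MMP3, its closest relative, had 0 counts in each shControl library and 2, 4 and 4 counts in shIFITM3. Its observed total was 6.12-fold higher on the same basis. These counts are all even, so reads may have been counted in pairs, and the values would then be 6.73-fold and 3.06-fold. Counting error of the knockdown totals is not included, so the values are not lower bounds. With no filter on low counts, MMP10 and MMP3 passed (edgeR adjusted p = 0.000624 and 0.0225). These p-values took the counts as given, and if reads were counted in pairs they rest on fewer reads than the counts show. MMP7 and MMP9 had totals of 20 and 48 counts over the shControl libraries and 4 and 10 over the shIFITM3 libraries, and did not pass without the filter (edgeR adjusted p = 0.481 and 0.208).

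ADAMTS genes changed in both directions, with 5 rises and 2 falls among 12 tested. These are 58.3% of the 12, near the 56.1% of all tested genes. ADAMTS6 (chromosome 5, 65148738 to 65481920), which acts on fibrillin microfibrils, was at 4.29, 3.13 and 3.17 CPM in shControl and at 13.5, 14.3 and 14.9 CPM in shIFITM3. The groups were far apart, and the rise was 4.16-fold (log2 fold change 2.06, SE 0.131, edgeR adjusted p = 2.47e-12). ADAMTS17 (chromosome 15, 99971437 to 100341975), another microfibril protease, was at 4.57, 3.81 and 4.49 CPM and at 6.91, 6.91 and 7.95 CPM. It rose by 0.78 (SE 0.143, edgeR adjusted p = 5.72e-05), again with separate groups.

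Of the proteoglycan-cutting ADAMTS genes 2 rose and 1 fell among 4 tested (75%, against 56.1% of all tested genes). ADAMTS9 (chromosome 3, 64515654 to 64688000) was at 16.6, 14.3 and 12.7 CPM and at 29.9, 30.3 and 32.6 CPM. ADAMTS1 (chromosome 21, 26835755 to 26845409) was at 1.18, 0.909 and 1.24 CPM and at 2.54, 3.13 and 2.76 CPM. Both are versican-cutting enzymes, and both rose without overlap, by 1.10 (SE 0.0859, edgeR adjusted p = 1.08e-10) and 1.38 (SE 0.263, edgeR adjusted p = 9.04e-05). ADAMTS15 (chromosome 11, 130448645 to 130476645), which also cuts versican, was at 8.86, 7.91 and 9.85 CPM and at 4.04, 5.13 and 3.68 CPM. It fell to 0.487 times the control (log2 fold change -1.04, SE 0.145, edgeR adjusted p = 1.66e-06).

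ADAMTS16 fell by 0.49 on the log2 scale, from 28.5, 27.8 and 24.0 CPM to 18.4, 19.7 and 19.1 CPM. ADAMTS13 (chromosome 9, 133414337 to 133459386), the protease of von Willebrand factor, was at 1.93, 1.66 and 1.75 CPM and at 2.32, 2.96 and 2.59 CPM. It passed narrowly (log2 fold change 0.57, SE 0.231, edgeR adjusted p = 0.0386). The call ended with the replicate number as a block (0.0522) and when shControl replicate 2 or 3 or shIFITM3 replicate 2 or 3 was left out (edgeR adjusted p = 0.132, 0.074, 0.135 and 0.0709). ADAMTS12, the most abundant ADAMTS at 138 ± 5.04 and 143 ± 7.03 CPM, did not pass (0.05, 95% interval -0.03 to 0.14). ADAMTS3 (-0.56), ADAMTS20 (-0.31), ADAMTS14 (-0.19) and ADAMTS7 (0.02) did not pass either. Without shControl replicate 2 the value of ADAMTS14 was 0.15. ADAMTS7 was at 0.28 without shControl replicate 3 and at -0.32 without shIFITM3 replicate 3. ADAMTS3, a procollagen N-proteinase, passed without shControl replicate 1 or shIFITM3 replicate 1 (edgeR adjusted p = 0.042 and 0.0417).

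**Figure D4:**
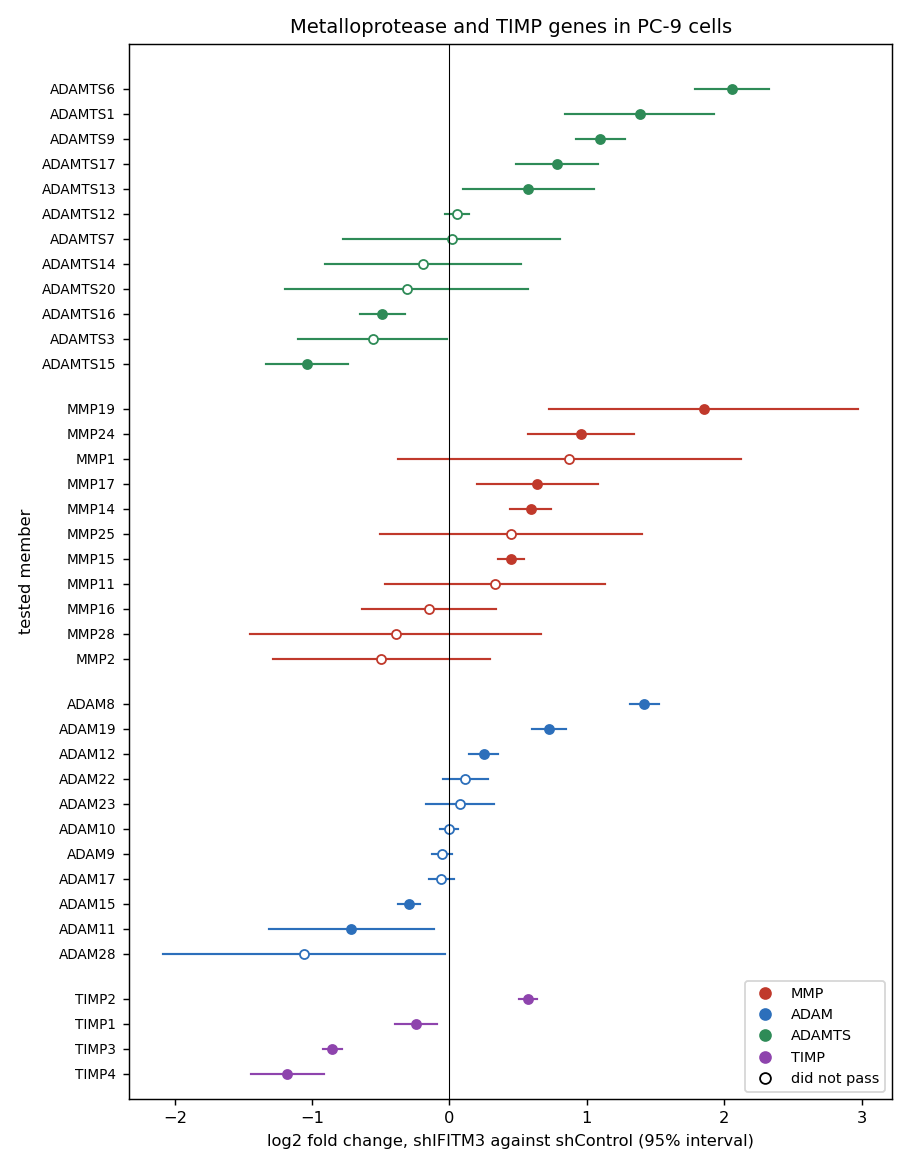
Log2 fold change in shIFITM3 against shControl with its 95% interval for the 38 tested members, grouped by family. Filled points passed the test and open points did not. The intervals of ADAM10, ADAM17 and ADAM9 are narrow and cross 0, whereas those of MMP1, MMP28 and MMP25 are wide.

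Per length, the most abundant members in shControl were TIMP3 (71.3 ± 1.00 RPKM), TIMP2 (62.4 ± 0.766 RPKM), ADAM15 (61.8 ± 3.02 RPKM) and ADAM9 (60.2 ± 2.86 RPKM). TIMP2, ADAM15 and ADAM9 lay within about their spread of each other. In shIFITM3 the order was TIMP2 (92.7 ± 3.10 RPKM), ADAM9 (57.9 ± 1.24 RPKM), ADAM15 (50.5 ± 1.57 RPKM) and TIMP3 (39.5 ± 0.683 RPKM). Other exon lengths would shift both orders. Summed over each family, ADAM genes were at 189 ± 1.06 and 195 ± 1.43 RPKM, MMP genes at 19.9 ± 0.361 and 28.3 ± 0.773 RPKM, and ADAMTS genes at 25.7 ± 1.10 and 28.3 ± 0.425 RPKM. MMP transcripts were thus a small part of the metalloprotease RNA in both groups, and MMP14 and MMP15 made up most of them.

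Of 10 genes whose products help or control ADAM10 and ADAM17, 6 rose and 2 fell (median log2 fold change 0.36). Counts in this and the following lists read against the 56.1% of all tested genes that changed. ADAM10 is steered by tetraspanins, which carry it to the surface and guide its choice of substrate. TSPAN5 rose from 25.6, 24.5 and 24.1 CPM to 46.4, 46.3 and 47.7 CPM (0.92, edgeR adjusted p = 2.72e-12) and TSPAN14 by 0.30, while TSPAN15 fell from 57.9, 56.2 and 56.8 CPM to 42.8, 41.2 and 40.9 CPM (-0.45, edgeR adjusted p = 6.42e-08). RHBDF2, which encodes an inactive rhomboid that ADAM17 needs for maturation, rose by 0.54. PACSIN3 (-0.16), the other fall, was chosen after its values were seen. Of 4 proprotein convertases, which cut off the inhibitory prodomain, FURIN rose from 137 ± 1.98 to 245 ± 9.46 CPM (0.84) and PCSK6 by 0.58. PCSK5 fell from 8.82 ± 0.676 to 3.55 ± 0.446 CPM (-1.32), and PCSK7 did not pass (-0.01).

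Among 10 tested genes of other activators and inhibitors 5 rose and 2 fell (median 0.20). PLAU (0.60) and PLAUR (0.61), which encode urokinase and its receptor, and THBS1 (0.55), which encodes a matrix glycoprotein, rose. The falls, named after their values were seen, were BSG (-0.15), which encodes an inducer of MMPs, and RECK (-0.56), a membrane inhibitor of MMPs. RECK was at 2.73 ± 0.528 and 1.83 ± 0.225 CPM, and its call (edgeR adjusted p = 0.0473) ended in 7 of 12 alternatives, among them without shControl replicate 1 or 3 or shIFITM3 replicate 1 or 3, with adjusted p up to 0.212. Of 3 tested genes of other metzincins, PAPPA, a protease of IGF-binding proteins, rose from 12.4 ± 0.635 to 41.0 ± 2.27 CPM (1.71) and TLL1 rose (2.55). TLL1 had 6, 9 and 6 counts in shControl and 28, 26 and 18 counts in shIFITM3, and it entered the test through the group in which it was higher. BMP1 fell by 0.19, a call that ended when shControl replicate 2 or 3 or shIFITM3 replicate 1 was left out (edgeR adjusted p up to 0.0914). Of 4 ADAMTS-like genes, whose products lack the protease domain, THSD4 (0.99) and ADAMTSL5 (0.56) rose and ADAMTSL4 (-0.53) fell.

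Most growth factor ligands that ADAM10 or ADAM17 release did not pass. HBEGF was the 1 rise among 7 tested, at 1.54, and TGFA (-0.08), EREG (-0.32) and AREG (0.07) did not pass. Of 18 other tested substrates 10 rose and 3 fell (median 0.21). CD44, the hyaluronan receptor, rose from 1188 ± 37.3 to 2247 ± 23.9 CPM (0.92), and MET (0.45) and the amyloid precursor gene APP (0.43) rose. CDH1, which encodes E-cadherin, fell from 177 ± 2.05 to 117 ± 2.72 CPM (-0.60). CDH2 (-0.48) and TNFRSF1B (-0.64), the other falls, were chosen after their values were seen, as was TNF. TNF had 0 counts in each shControl library and 26, 16 and 42 counts in shIFITM3. Against 3 counts over the control group its observed total was 51.4-fold higher, or 25.7-fold if counts come in pairs. TNF is among the 10 rises and entered the test only through the group in which it was higher. The call for TNFRSF1B ended without shIFITM3 replicate 2 (edgeR adjusted p = 0.111).

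Of 16 tested matrix substrates 8 rose and 3 fell (median 0.29). FN1 (1.00), LAMB3 (0.72) and COL17A1 (0.78) rose, and COL4A1, a chain of basement membrane collagen, fell from 20.6 ± 3.56 to 6.70 ± 0.719 CPM (-1.62). The rises include NID1 and COL4A2, which were under 1 CPM in every control library and over it in every knockdown library. Both entered the test through the group in which they were higher. The call for COL4A2 ended without shControl replicate 3 or shIFITM3 replicate 2 (edgeR adjusted p up to 0.0902). The call for COL1A1, also among the rises, ended in 5 of 12 alternatives. The other falls were COL5A1 (-0.49) and HSPG2 (-0.29). NID1, COL4A2, COL1A1, COL5A1 and HSPG2 were chosen after their values were seen. Of 12 transcription factor genes known to act on MMP promoters 6 rose and 4 fell (median 0.30). JUND (1.11), ETV4 (0.76), ETS1 (0.58) and ETV5 (0.47) rose. The 4 falls, FOS (-0.57), JUN (-0.32), ETS2 (-0.41) and FOSL2 (-0.14), were chosen after their values were seen.

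**Figure D5:**
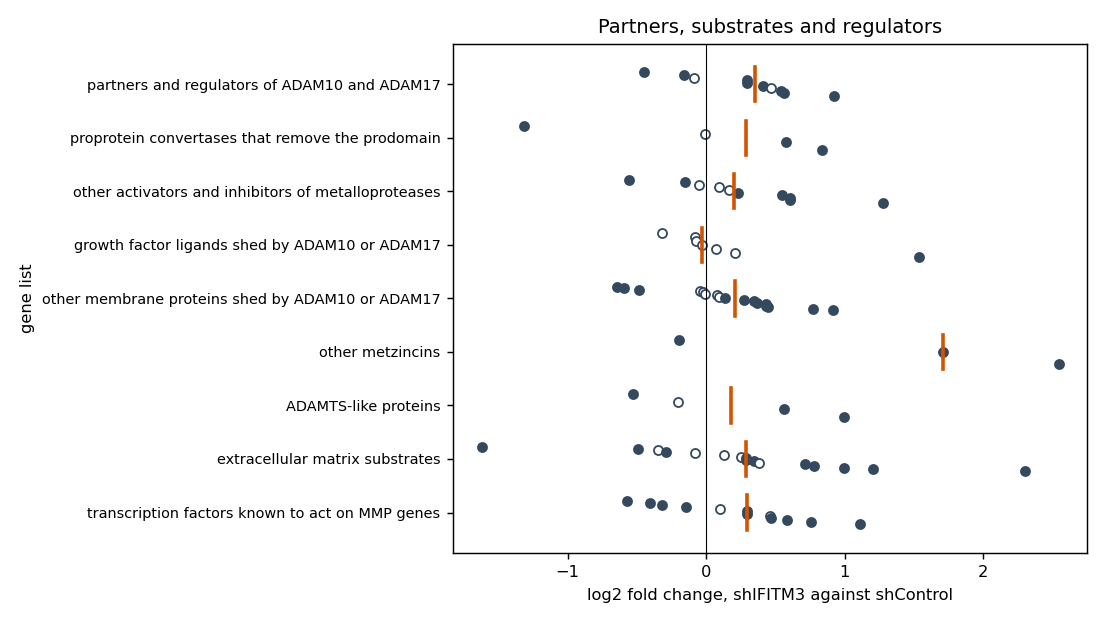
Log2 fold change in shIFITM3 (x axis) of each tested gene in 9 lists of partners, substrates and regulators (y axis). Filled points passed the test, open points did not, and the bar is the list's median. TNF is left out of the points because its control counts were 0. In the list of growth factor ligands only HBEGF is filled, at 1.54.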

How the data were processed

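The 6 samples share 1 table of unnormalised counts by gene symbol, as deposited by the authors. It was made on hg38, and the submitters' processing notes list HISAT2 2.2.1 and the featureCounts program (Subread 2.0.6), along with fastp 0.23.4, SAMtools 1.20 and FastQC 0.12.1. Annotation and strand setting: not given in the sources used here. Therefore overlapping genes on opposite strands may share reads (11 of the 38 tested members, 2 on the same strand, in GENCODE release 29). Of counts of 1 to 20 in the table, 76.5% were even.

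The test was that of edgeR 4.0.16 under R 4.3.3: filterByExpr by group, TMM scaling, glmQLFit on group, glmQLFTest two-sided, and Benjamini-Hochberg adjustment over 14018 genes. SE was derived from the log2 fold change and F (absolute value over root F). The code was tested on simulated data. RPKM is CPM per kilobase of merged exons of coding transcripts in GENCODE release 29. Alternatives were RLE and total-count scaling, no filter, at least 50 counts in 3 samples, DESeq2 1.42.0, a replicate block, and leaving out each sample. A count of 0 allows up to 3 counts, for counting error only. The knockdown totals set against it were taken as observed.

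Members and lists were chosen with earlier results of these data known. Described in full were ADAM10, ADAM17, the TIMPs and members with adjusted p under 0.05 and an absolute log2 fold change of at least 0.5, and of each list up to 4 genes with the smallest p. A gene that this rule names is not reported here. Gene positions and promoters are from RefSeq, GRCh38.p14. The first window listed for each symbol was used.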

Additional observations from a re-analysis of the deposited data

How the results depend on the processing

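Over the 12 alternatives, between 17 (without shControl replicate 2, the deepest library) and 23 (with no filter, and without shIFITM3 replicate 1) members were called, against 21 as reported, and no called member changed direction. Over all genes the count of calls ran from 7124 to 8082. IFITM3 stayed called, with log2 fold changes of -2.58 to -2.37. ADAM10 (-0.0145 to 0.0194) and ADAM17 (-0.0958 to -0.0312) stayed short of the threshold in all 12, with adjusted p of at least 0.656 and 0.11. The sign of ADAM10 changed with RLE and total-count scaling, with the strict filter, with DESeq2 and without shControl replicate 1. TIMP2 (0.55 to 0.60), TIMP3 (-0.87 to -0.84), TIMP4 (-1.34 to -1.06), ADAM8 (1.39 to 1.46) and ADAMTS6 (1.95 to 2.18) kept their calls in all 12. The strict filter left ADAM11 and MMP19 untested. With the replicate number as a block 19 members were called and ADAM11 and ADAMTS13 were lost. Over all genes it gave 7870 calls. The deviations of same-numbered samples correlated at 0.0157, 0.033 and 0.00634, and shControl replicate 1 correlated more with shIFITM3 replicate 3 (0.0252). No shared deviation was thus seen by number. These correlations cannot show whether same-numbered samples were handled together. Where a library is left out the 2 remaining samples of its group share the spread of the fit. The 28 untested members had too few reads for the test, and 14 of them had none in any library, the deepest included. Genes under 1 CPM have wide intervals.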

Other observations

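The rows left out of the family as antisense RNAs or pseudogenes were mostly low. MMP24-AS1 was at 12.1, 15.9 and 14.3 CPM in shControl against 18.8, 21.6 and 19.0 CPM after knockdown, and it rose by 0.46 on the log2 scale (SE 0.0983, edgeR adjusted p = 0.000306). MMP25-AS1 (1.65 ± 0.253 and 1.80 ± 0.315 CPM) and the pseudogene ADAM1A (1.98 ± 0.212 and 2.31 ± 0.311 CPM) were the other tested rows and did not pass. CHCHD10, which shares exon sequence with MMP11 on the opposite strand, fell from 17.2 ± 1.49 to 8.19 ± 1.65 CPM, while MMP11 itself was under 1 CPM on average in both groups.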
